A study of Sus scrofa with 9 samples.

Results

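The Polycomb and Trithorax group genes described here are 43 gene symbols that encode subunits of the Polycomb repressive complexes PRC2 and PRC1, the Polycomb deubiquitinase PR-DUB, the KMT2 (Trithorax) histone methyltransferase complexes, and the related factors YY1, KMT2E and ASH1L. They were chosen by name and not by a rule on their values, though earlier results of these data were known. All 43 were found in both tables of exonic 5-hydroxymethylcytosine (5hmC), among 18933 genes in the first table and 18992 in the second. In the porcine assembly Sscrofa11.1 they lie on 17 chromosomes.

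The 5hmC was measured by hMeDIP-seq, in which fragmented genomic DNA is captured with an antibody against 5hmC and sequenced. The cells were mesenchymal stem/stromal cells (MSCs), digested from subcutaneous abdominal fat of female domestic pigs, which were 3 months old when their diet began, and expanded in culture. Lean-MSCs (libraries 7, 8 and 9) came from pigs on standard chow, also for 16 weeks as the study states. Obese-MSCs (libraries 1, 2 and 3) came from pigs on a high-fat/high-fructose diet for 16 weeks and were left untreated. Treated Obese-MSCs (libraries 4, 5 and 6) came from pigs on that same 16-week diet, and their cultures received 50 µg/mL of vitamin-C for 48 h. The labels name no genetic change and no other agent. The study states that the growth medium itself holds vitamin-C at a lower concentration, so untreated cultures were not free of it. Whether a treated and an untreated culture shared a pig was given in neither the labels nor the methods. The first table compares Obese-MSCs with Lean-MSCs and the second compares treated with untreated Obese-MSCs. Each table holds normalized counts over all exons of a gene, and the same 3 untreated libraries appear in both, normalized separately, with values of the 43 genes a median of 1.11 times higher in the second. Values were therefore compared within a table only, and in the text they follow the order of the library numbers.

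Polycomb and Trithorax proteins keep genes in a silent or an active state through cell division. PRC2 methylates histone H3 at a lysine that marks silenced genes, canonical PRC1 binds that mark, PRC1 ubiquitinates histone H2A, PR-DUB removes that ubiquitin, and KMT2 complexes methylate a different lysine of histone H3 at promoters and enhancers of active genes. In MSCs the Polycomb repressive complexes PRC2 and PRC1 are known for holding lineage genes and the INK4 cell cycle inhibitors in check during self-renewal. 5hmC arises when TET dioxygenases oxidize methylated cytosine, vitamin-C is a cofactor of these enzymes, and the mark is common in the bodies of transcribed genes. A value here is the 5hmC captured over a gene's exons, and says nothing by itself of how much protein the gene makes. In a bulk culture, fewer cells that carry the mark and less of the mark per cell cannot be told apart.

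The library totals were close, at 494566 to 522269 normalized counts in the first table and 547242 to 593846 in the second, of which the 43 genes took between 0.508% and 0.563%. The depth in reads is unknown, so errors here are the SD over the 3 libraries of a group. The summed exonic 5hmC of the MSC marker genes NT5E, THY1 and ENG was 94.8 to 123 in the Obese libraries and 80.1 to 88.4 in the Lean libraries, which did not overlap. Over 12 marker genes of other cell types (CD14, CD34, PTPRC and endothelial, adipocyte and macrophage genes) the sums overlapped, at 448 to 501 and 414 to 495. Of these 12 genes 8 had ratios above 1 and 4 below. CD14 was listed at 0 in all 3 Lean libraries and at 0.650, 0.924 and 4.49 in the Obese libraries, which are low values. ADGRE1, a macrophage gene, was lower in every Obese library than in any Lean library (log2 ratio -0.74), while the log2 ratios of the macrophage genes CD163 and CD68 were -0.34 and 0.10 with overlap. In the second table the MSC marker sums were 86.5 to 125 in treated and 104 to 139 in untreated libraries, and those of the other cell types 445 to 531 and 506 to 557, with 6 of the 12 ratios above 1. ADGRE1, which also met the study's criteria for a changed gene, and the endothelial gene CDH5 were lower in every treated library (log2 ratios -0.52 and -0.31). CD163 and CD68 had -0.20 and 0.16 with overlap. The part of these differences in the results that follow was not tested, and the exonic 5hmC of a marker is no measure of its expression.

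Comparing Obese-MSCs with Lean-MSCs addresses whether diet-induced obesity is accompanied by a different 5hmC level of these regulators. The groups did not overlap in 5 of the 43 genes, about the same share as over all genes. EED, which encodes the PRC2 subunit that reads the methylated lysine, was the only member to meet the study's criteria, with 1.79-fold less 5hmC in Obese-MSCs. The PRC1 genes PHC1 and BMI1 and the PR-DUB gene ASXL3 were also lower in every Obese library than in any Lean library, by 1.69- to 1.86-fold, without meeting those criteria. The study's criteria call a gene when a two-sided test with equal variances, run gene by gene on the deposited values, gives p of 0.05 or less without adjustment, and the ratio of group means is at least 1.4 (high) or at most 0.7 (low). Applied here to the deposited values, they called 1 of 43 genes (2.33%), against 4.5% of all 18933 genes (2.07% high, 2.43% low). The groups did not overlap in 5 of the 43, 1 higher and 4 lower in Obese-MSCs, against 11.8% of all genes (5.7% higher, 6.06% lower). Of the 43 ratios 21 lay above 1 and 22 below, with a median log2 ratio of -0.04, beside 0.01 over all genes. The 43 log2 ratios ran from -0.90 to 0.74, and 38 of the ratios lay between the limits of 0.7 and 1.4. The ratio crossed 1 in 16 of the 43 genes when 1 library at a time was omitted.

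Fitted across all genes with limma on log2(normalized count + 1), none of the 43 passed a Benjamini-Hochberg adjusted p of 0.05, nor did any of the 15146 genes tested. The limma adjusted p-values of the members lay between 0.679 and 0.998. Unadjusted limma p-values of 0.05 or less were found for 3 members (EED, PHC1 and ASXL3), all lower in Obese-MSCs, against 6.81% of the genes tested (3.2% higher, 3.61% lower). The 95% interval of the limma difference held 0 for the other 40 members.

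**Figure D1:**
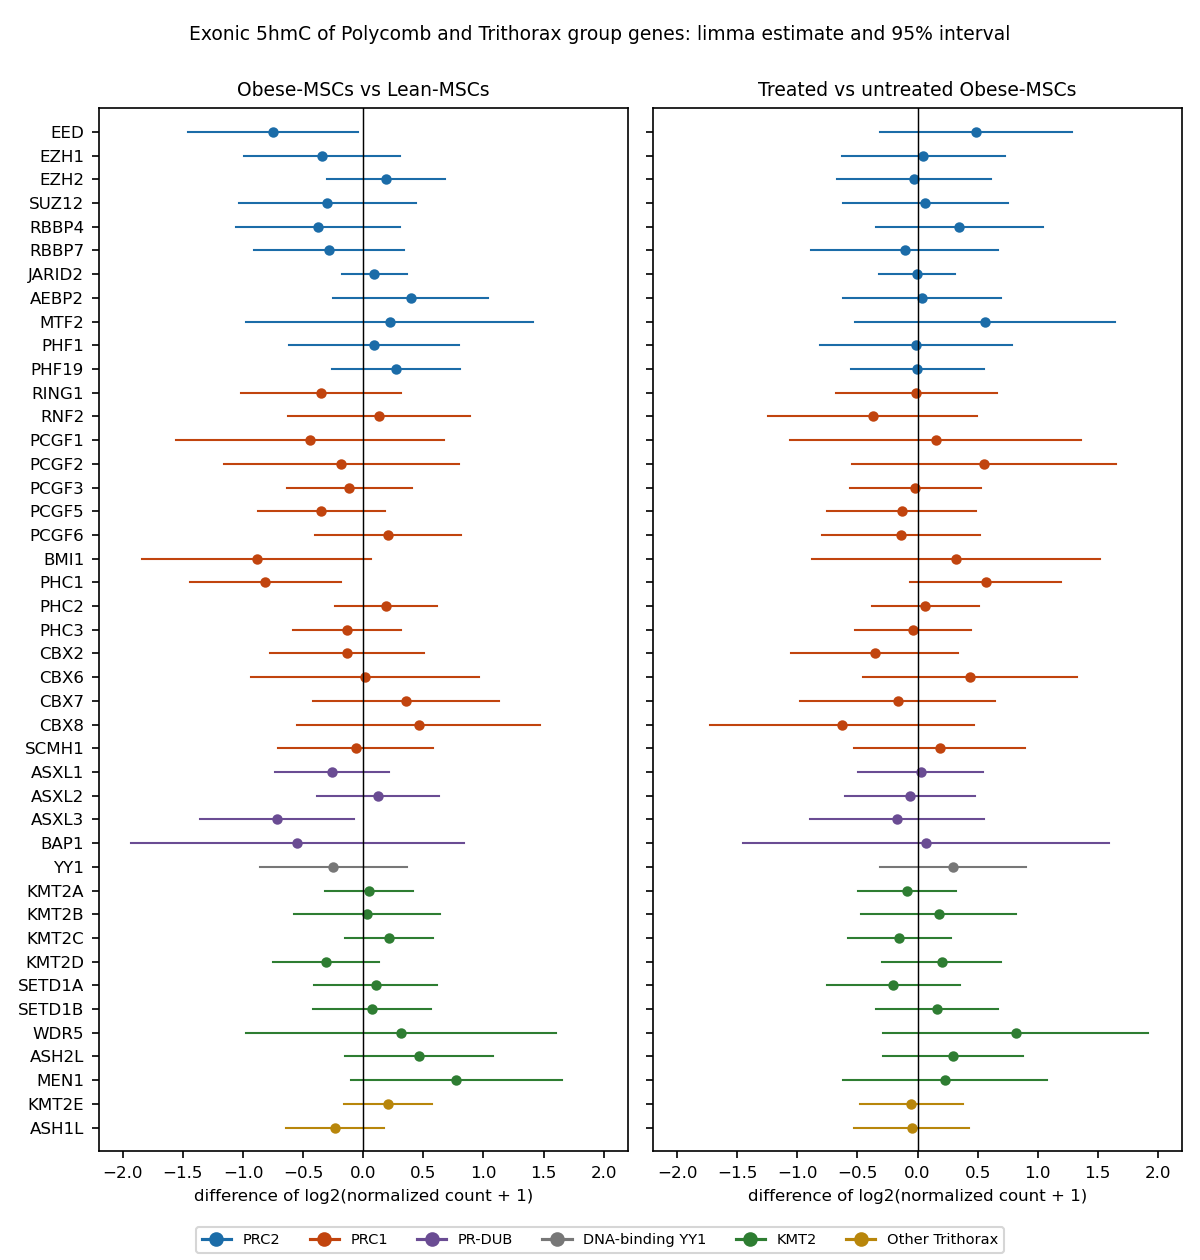
Limma difference of log2(normalized count + 1) with its 95% interval for each of the 43 genes, Obese-MSCs against Lean-MSCs on the left and treated against untreated Obese-MSCs on the right, from 3 libraries per group and coloured by complex. On the left the intervals of EED, PHC1 and ASXL3 lie below 0 and the other 40 hold 0, and on the right all 43 hold 0.

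PRC2 consists of a catalytic subunit, EZH1 or EZH2, with EED, SUZ12 and a histone-binding RBBP4 or RBBP7, and is directed to its sites by accessory subunits. EED (chromosome 9, 20123077 to 20158747, Sscrofa11.1) had 8.48, 10.5 and 8.30 normalized counts in Obese libraries against 11.5, 19.9 and 17.5 in Lean libraries. Every Obese library lay below every Lean library, with Lean library 7 nearest to them. The means were 9.08 ± 1.19 and 16.3 ± 4.31 (SD, n = 3 each), a log2 ratio of -0.84, and this ratio ranged from -1.04 to -0.67 when 1 library at a time was omitted. The gene-by-gene p was 0.0494, close to the threshold, and the limma adjusted p was 0.704. The call was lost when the libraries were rescaled by size factors or by quantile normalization, and without Obese library 1, 2 or 3 or Lean library 8 or 9.

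The catalytic subunits of PRC2 did not separate the groups. EZH1 (chromosome 12, 20107744 to 20139764) had 10.6, 13.3 and 17.4 normalized counts in Obese libraries against 19.2, 17.9 and 15.4 in Lean libraries. Obese library 3 reached into the Lean range, and the log2 ratio was -0.34 (limma adjusted p = 0.884). EZH2 (chromosome 9, 109384976 to 109450943) had 82.2, 60.6 and 53.3 in Obese libraries against 59.8, 56.6 and 52.4 in Lean libraries. Its log2 ratio of 0.22 came mostly from Obese library 1, without which it was 0.02. Apart from EZH2, the core genes had ratios below 1 (5 of 6, median log2 ratio -0.35), with -0.38 for SUZ12, -0.35 for RBBP4 and -0.25 for RBBP7, whose groups overlapped. SUZ12 changed sign without Lean library 7, with a log2 ratio of 0.08.

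The accessory subunits AEBP2, JARID2, MTF2, PHF1 and PHF19, which help PRC2 to bind chromatin, had ratios above 1 (5 of 5, median log2 ratio 0.09). Under quantile normalization JARID2 fell below 1 and the count was 4 of 5. The count went down to 3 of 5 without Lean library 8, where MTF2 and PHF1 had log2 ratios of -0.38 and -0.21. PHF19 (chromosome 1, 260899462 to 260919776) was the only member that was higher in every Obese library, with 35.8, 35.1 and 30.7 normalized counts against 26.1, 27.8 and 29.8. The highest Lean value lay just under the lowest Obese value, and the ratio of 1.22 was below the limit of 1.4. Its gene-by-gene p was 0.0350, while 6.04% of all genes had p of 0.05 or less by that test. JARID2 (chromosome 7, 11358243 to 11601715), the gene with the most counts of the 43, gave the closest estimate, with 735 ± 56.7 in Obese cells against 689 ± 26.2 in Lean cells (SD, n = 3 per group). Its 95% limma interval of -0.18 to 0.36 on the log2 scale was the narrowest of all members and held 0. At the other end of the counts, MTF2 had 2.99, 5.72 and 3.58 normalized counts in Obese libraries against 4.50, 0.986 and 6.14 in Lean libraries, and its interval ran from -0.98 to 1.41.

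PRC1 combines a ubiquitin ligase, RING1 or RNF2, with a PCGF partner, and in its canonical form with PHC proteins, which form chains between complexes, and CBX proteins, which read the PRC2 mark. PHC1 (chromosome 5, 62557774 to 62580640) had 22.7, 23.8 and 14.4 normalized counts in Obese libraries against 49.4, 27.8 and 32.9 in Lean libraries. All 3 Obese libraries lay below the Lean libraries, among which library 7 stood highest. The means of 20.3 ± 5.11 and 36.7 ± 11.3 (SD, n = 3 each) gave a log2 ratio of -0.85, which was -0.58 without Lean library 7. Its gene-by-gene p was 0.0835 and its limma adjusted p 0.679. BMI1 (PCGF4, chromosome 10, 52586089 to 52596154), a PCGF partner best known for repressing the INK4 locus, had 6.38, 1.84 and 5.82 normalized counts in Obese libraries against 7.96, 7.94 and 10.3 in Lean libraries. The groups were separate, but all 6 values were low and Obese library 2 stood apart from the other two. The log2 ratio was -0.90 with all libraries and -0.52 without Obese library 2, and the limma adjusted p was 0.762.

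The ubiquitin ligase genes overlapped between the groups. RING1 (chromosome 7, 25251507 to 25255526) had 17.3, 14.2 and 11.9 normalized counts in Obese libraries against 13.8, 24.8 and 18.5 in Lean libraries, a log2 ratio of -0.39 (limma adjusted p = 0.884). RNF2 (chromosome 9, 126172637 to 126284567) had 8.09, 14.2 and 21.9 in Obese libraries against 11.4, 14.9 and 11.3 in Lean libraries, a log2 ratio of 0.24 that turned to -0.17 without Obese library 3. The 5 further PCGF genes, which choose the form of PRC1, had log2 ratios of -0.40 (PCGF1), -0.12 (PCGF2), -0.12 (PCGF3), -0.33 (PCGF5) and 0.26 (PCGF6), all with overlapping groups. Of the 8 ligase and PCGF genes, BMI1 included, 6 had ratios below 1, with a median log2 ratio of -0.23. Among the PHC, CBX and SCMH1 genes 5 of 8 lay below 1, with a median of -0.06. The CBX genes CBX2, CBX6, CBX7 and CBX8 had log2 ratios of -0.13, -0.08, 0.38 and 0.48, each with overlapping groups. PHC2 and PHC3 had 0.19 and -0.14, and SCMH1, a PRC1-associated protein, had -0.04.

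In PR-DUB the deubiquitinase BAP1 acts with an ASXL partner. ASXL3 (chromosome 6, 117334177 to 117518589) had 14.8, 17.1 and 10.8 normalized counts in Obese libraries against 19.4, 22.8 and 29.7 in Lean libraries. The groups were separate, with means of 14.2 ± 3.19 and 24.0 ± 5.28 (SD, n = 3 each) and a log2 ratio of -0.75. The gene-by-gene p of 0.0519 fell just outside the criteria, and the limma adjusted p was 0.704. ASXL1 and ASXL2, its paralogs, overlapped between the groups, with log2 ratios of -0.26 and 0.10. BAP1 (chromosome 13, 34544570 to 34553538) had 5.47, 8.62 and 0.168 normalized counts in Obese libraries against 4.58, 8.95 and 3.11 in Lean libraries. With so few counts its 95% interval, 2.77 wide on the log2 scale, was the widest of the 43, and its log2 ratio moved from -0.98 without Obese library 2 to 0.35 without Obese library 3. YY1, a DNA-binding Polycomb factor, had a log2 ratio of -0.24 with overlapping groups.

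**Figure D2:**
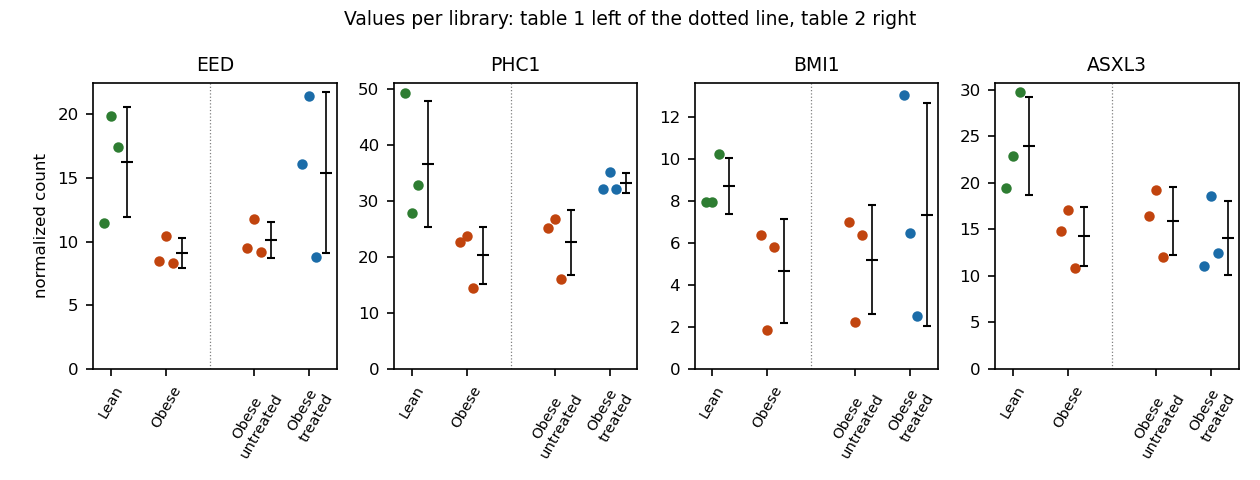
Normalized counts of EED, PHC1, BMI1 and ASXL3 in each library (points) with mean and SD beside them (n = 3), for Lean and Obese-MSCs in the first table and untreated and treated Obese-MSCs in the second. In the first table each gene's 3 Obese points lie below its 3 Lean points, and in the second the groups are separate for PHC1 only, with 32.2 to 35.2 in treated and 16.0 to 26.8 in untreated libraries.

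The KMT2 genes encode the methyltransferases KMT2A to KMT2D, SETD1A and SETD1B and the shared subunits WDR5, ASH2L and MEN1 (menin, of the KMT2A and KMT2B complexes). No group of libraries was separate for any of the 9, while 8 of 9 ratios lay above 1 (median log2 ratio 0.11), a count that was 7 of 9 under quantile normalization and went down to 6 of 9 with a library left out. KMT2A (chromosome 9, 45743566 to 45828559) had 177, 200.1 and 191 normalized counts in Obese libraries against 193, 199 and 159 in Lean libraries. The log2 ratio was 0.04, and the 95% limma interval of -0.32 to 0.42 put a bound on the difference in either direction. KMT2B (chromosome 6, 45146863 to 45166854) had 28.2, 25.6 and 17.9 against 19.4, 27.8 and 22.6, a log2 ratio of 0.04.

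KMT2C and KMT2D are the enhancer methyltransferases of the family, and their ratios lay on opposite sides of 1. KMT2C (chromosome 18, 4993213 to 5279668) had 301, 235 and 232 normalized counts in Obese libraries against 226, 196 and 238 in Lean libraries, a log2 ratio of 0.22 (limma adjusted p = 0.872). KMT2D (chromosome 5, 15049827 to 15091622), the exception in the family, had 158, 168 and 101 in Obese libraries against 155, 173 and 191 in Lean libraries. Its log2 ratio of -0.28 became -0.09 without Obese library 3, the lowest of the 6. The promoter methyltransferases were close to 1 in ratio. SETD1A (chromosome 3, 17463768 to 17490397) had 54.7, 49.3 and 39.1 against 38.6, 44.7 and 49.3, a log2 ratio of 0.11. SETD1B (chromosome 14, 30862155 to 30885592) had 97.6, 81.5 and 67.4 against 96.9, 59.6 and 80.1, a log2 ratio of 0.06. The shared subunits MEN1, WDR5 and ASH2L had the larger ratios, at log2 0.74, 0.47 and 0.45, all with overlapping groups and limma intervals that held 0. That of WDR5 turned to -0.23 without Obese library 2 and was 0.96 without Lean library 7. KMT2E and ASH1L, Trithorax proteins outside these complexes, had log2 ratios of 0.21 and -0.24, again with overlap.

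**Figure D3:**
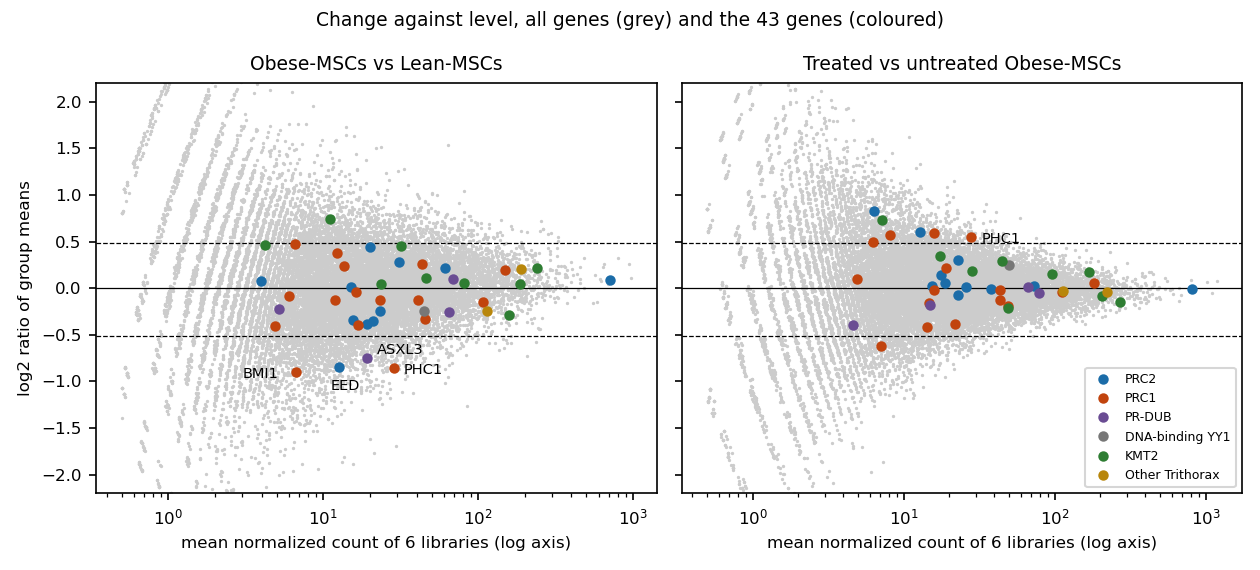
Log2 ratio of group means against mean normalized count (log axis) for all genes with a mean above 0.5 (grey) and the 43 genes (coloured by complex), with dashed lines at ratios of 1.4 and 0.7, for Obese-MSCs against Lean-MSCs (left) and treated against untreated Obese-MSCs (right). Grey points beyond the axis are not drawn. The genes with most counts lie near 0, and BMI1, EED, ASXL3 and PHC1 lie below the lower line on the left.

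Comparing vitamin-C-treated with untreated Obese-MSCs addresses whether added vitamin-C, a cofactor of the TET enzymes, changes the 5hmC of these genes in cells from obese pigs. PHC1, the PRC1 chain-forming subunit, was the only member to meet the criteria, with 1.47 times more 5hmC in treated cells. The other 42 genes did not meet them, and their groups overlapped. The criteria thus called 1 of 43 genes (2.33%), against 1.92% of all 18992 genes (1.11% high, 0.806% low), and the groups did not overlap in 1 of 43, against 5.91% of all genes (3.24% higher, 2.67% lower). Of the 43 ratios 23 lay above 1 and 20 below, with a median log2 ratio of 0.02, beside 0.0045 over all genes. The log2 ratios ran from -0.62 (CBX8) to 0.83 (MTF2), and 35 of the ratios lay between 0.7 and 1.4. The ratio crossed 1 in 25 of the 43 genes with 1 library omitted. With limma no member, and none of 15194 genes, passed an adjusted p of 0.05, and all 43 adjusted p-values rounded to 1.00. No member had an unadjusted limma p of 0.05 or less, against 0.974% of the genes tested (0.559% higher, 0.415% lower), and all 43 of the 95% intervals held 0.

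PHC1 had 32.2, 35.2 and 32.2 normalized counts in the treated libraries and 25.1, 26.8 and 16.0 in the untreated libraries. The treated libraries were close together and all above the untreated ones, among which library 3 was lowest. The means were 33.2 ± 1.74 and 22.6 ± 5.81 (SD, n = 3 each), a log2 ratio of 0.55, with a gene-by-gene p of 0.0391, where 2.64% of all genes had p of 0.05 or less. The limma adjusted p rounded to 1.00, and the limma interval of -0.06 to 1.19 on the log2 scale held 0. Without untreated library 3 the log2 ratio was 0.36 and the call was lost, as it was without untreated library 1 and without treated library 4, 5 or 6. On log2 values the same gene-by-gene test did not call PHC1. Its lower value in Obese-MSCs against Lean-MSCs (log2 ratio -0.85) and its higher value in treated against untreated cells (0.55) share the 3 untreated libraries and are not independent of each other.

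Beside PHC1, the genes that were lower in every Obese library than in any Lean library had these values after treatment. EED had 16.1, 21.4 and 8.77 normalized counts in the treated libraries and 9.46, 11.8 and 9.17 in the untreated libraries. Its ratio of 1.52 was above the limit of 1.4, but treated library 6 lay below all untreated libraries and the gene-by-gene p was 0.232. BMI1 had 13.1, 6.45 and 2.53 in the treated and 7.00, 2.22 and 6.37 in the untreated libraries, a log2 ratio of 0.50 with wide spread in both groups. This ratio turned to -0.21 without treated library 4 and was 0.91 without treated library 6. ASXL3 had 11.07, 18.6 and 12.5 against 16.4, 19.2 and 11.96, a log2 ratio of -0.18 with overlapping groups. These values too rest on the untreated libraries of the first comparison.

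**Figure D4:**
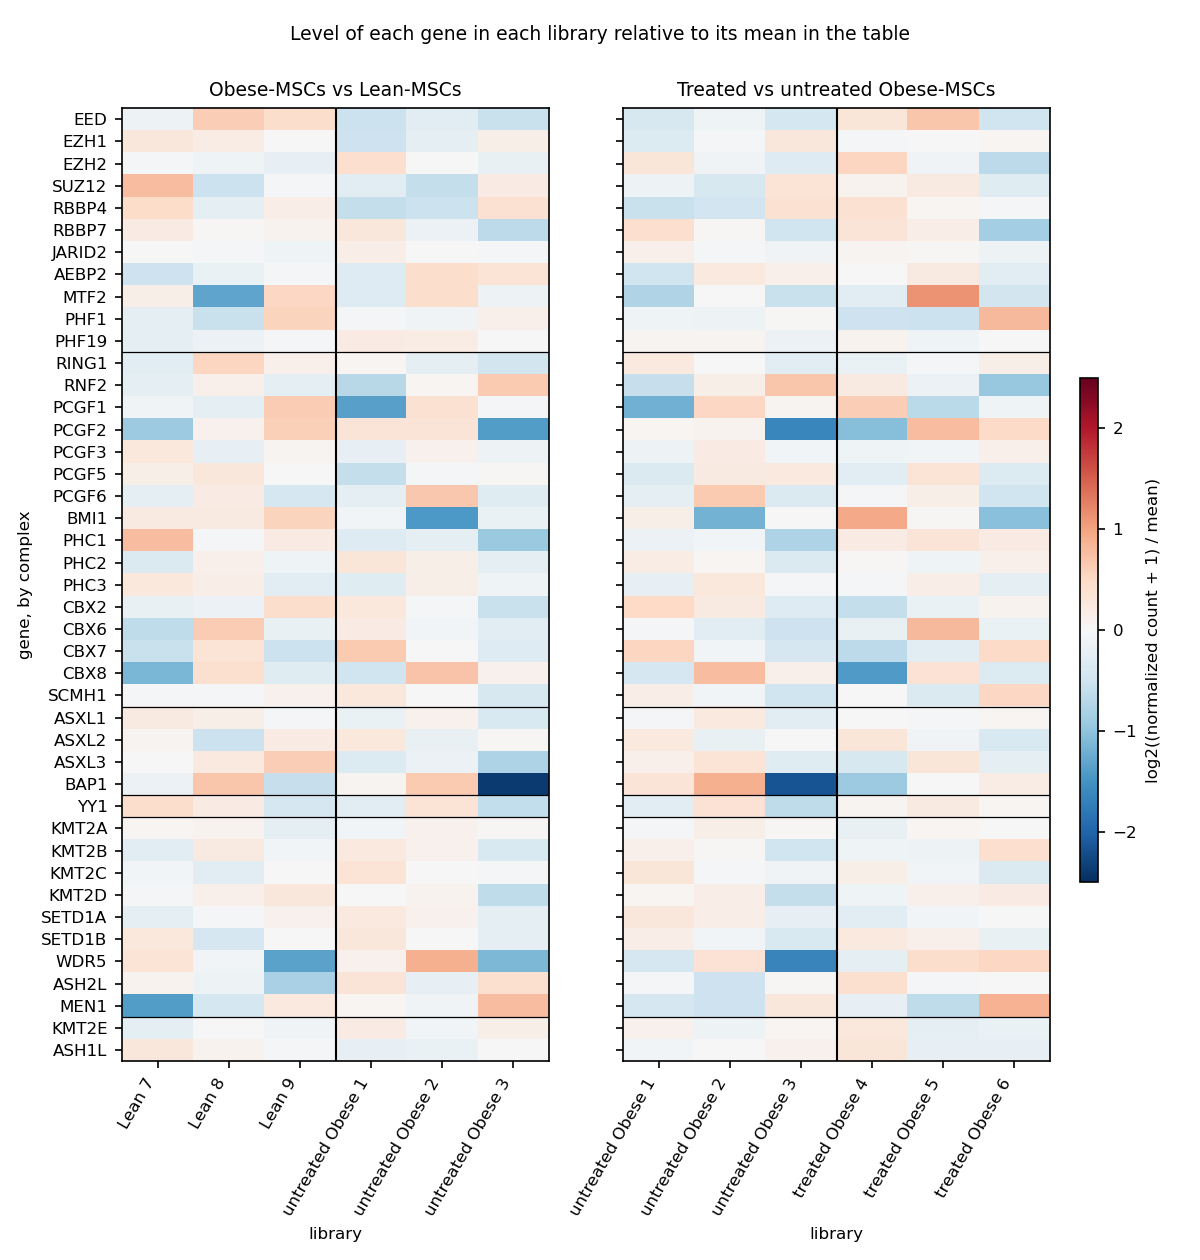
Each gene's log2 of (normalized count + 1) relative to its mean over the 6 libraries of a table, for the 43 genes by complex (rows, from PRC2 at the top to KMT2E and ASH1L) and each library (columns), with a line between the groups. The strongest departure is BAP1 in untreated Obese library 3, where it had 0.168 normalized counts in the first table, and no block of a whole complex differs between the groups.

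The catalytic genes overlapped between treated and untreated cells. In PRC2, EZH1 had 15.1, 15.7 and 16.1 normalized counts in the treated libraries and 11.97, 15.0 and 19.1 in the untreated libraries, a log2 ratio of 0.03. EZH2 had 107, 69.4 and 46.3 against 91.0, 68.7 and 58.7, also a log2 ratio of 0.03. Its treated libraries spread wider than the untreated ones on both sides. The accessory subunit JARID2 again gave the closest estimate, with 816 ± 55.6 in treated and 819 ± 63.0 in untreated cells (SD, n = 3 each) and a 95% limma interval of -0.32 to 0.31 on the log2 scale. Over the 11 PRC2 genes the median log2 ratio was 0.03, with 8 ratios above 1 (10 with size factors, 9 under quantile normalization). With a library left out this number went down to 7. The largest were those of MTF2 (0.83), EED (0.61) and RBBP4 (0.31), and that of MTF2 was 0.03 without treated library 5.

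In PRC1, RING1 had 14.1, 15.7 and 18.0 normalized counts in the treated libraries and 19.1, 16.1 and 13.2 in the untreated libraries, a log2 ratio of -0.02. RNF2 had 17.1, 12.97 and 7.00 against 9.26, 16.1 and 24.0, a log2 ratio of -0.41 that was -0.04 without untreated library 3. Both genes thus had overlapping groups. Over the 16 PRC1 genes the median log2 ratio was -0.02, with 7 ratios above 1. In PR-DUB, BAP1 had 2.02, 4.64 and 5.42 against 6.07, 9.54 and 0.270, a log2 ratio of -0.39 that turned to 0.35 without untreated library 2, and ASXL1 and ASXL2 had 0.01 and -0.05. YY1 had 0.24.

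Of the KMT2 methyltransferases, KMT2A had 179, 211 and 205 normalized counts in the treated libraries and 197, 226 and 209.7 in the untreated libraries, a log2 ratio of -0.09. KMT2B had 26.2, 25.9 and 38.7 against 31.2, 28.9 and 19.8, a log2 ratio of 0.18. KMT2C had 302, 259 and 211 against 335, 266 and 255, a log2 ratio of -0.15. None of these separated the groups, and neither did the other three. KMT2D had 156, 184 and 195 against 176, 189.7 and 111, a log2 ratio of 0.17 that was -0.03 without untreated library 3. SETD1A had 40.2, 47.2 and 50.2 against 60.6, 55.8 and 43.1, and SETD1B 115, 106 and 84.9 against 108, 92.2 and 74.2, with log2 ratios of -0.21 and 0.16. The shared subunits WDR5, MEN1 and ASH2L had log2 ratios of 0.73, 0.34 and 0.30, and KMT2E and ASH1L -0.04 and -0.03, all with overlapping groups. The log2 ratio of MEN1 turned to -0.24 without treated library 6. The limma intervals of these 11 genes held 0.

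Summed over each complex, the 5hmC of the groups overlapped in both comparisons. The PRC2 genes summed to 956 ± 63.1 in Obese cells against 914 ± 28.3 in Lean cells (SD, n = 3 per group), a log2 ratio of 0.07 and JARID2 made up most of each sum. The log2 ratio became -0.04 under quantile normalization. The log2 ratios of the sums were -0.05 for PRC1, -0.16 for PR-DUB and 0.07 for KMT2. All 43 genes together summed to 2772 ± 188 in Obese cells against 2731 ± 51.3 in Lean cells (SD, n = 3 per group). The treated and untreated sums were closer still, with log2 ratios of 0.02 for PRC2, 0.01 for PRC1, -0.05 for PR-DUB and 0.00 for KMT2. Over all 43 genes they were 3104 ± 172 and 3089 ± 232 (SD, n = 3 each).

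**Figure D5:**
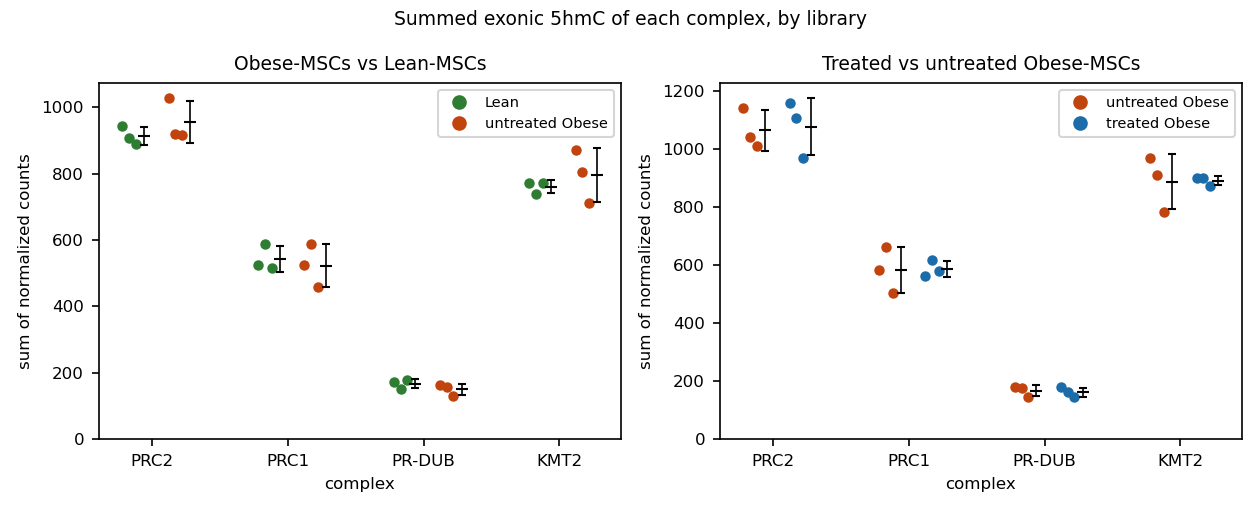
Summed normalized counts of the PRC2 (11 genes), PRC1 (16), PR-DUB (4) and KMT2 (9) genes in each library (points) with mean and SD (n = 3), for Obese-MSCs and Lean-MSCs on the left and treated and untreated Obese-MSCs on the right. The groups overlap for each complex in both panels. On the left the untreated libraries spread more widely than the Lean ones for each complex, with the closest SDs for PR-DUB (16.4 and 13.3).

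The spread within groups followed the counts behind a gene. In the first table the median coefficient of variation was 38.2% for the 18 members with a mean under 20 normalized counts, 20.7% for the 17 with 20 to 100 and 11.2% for the 8 with 100 and over. Over all genes of these classes it was 37.4%, 20.6% and 14.8%. In the second table the members had 41.6%, 21.6% and 13.9%, beside 38.9%, 22.7% and 17.6% over all genes. Untreated Obese library 3 was the lowest of the 6 libraries for 13 of the 43 genes in the first table (30.2%) and 14 in the second (32.6%), against 17.2% and 16.4% of all genes in the upper 80% by mean. Obese library 1 was the highest for 13 genes in the first table (30.2%), against 18.3% of all such genes. Untreated Obese library 3 belongs to the untreated group of both comparisons, so it entered the values of all 43 genes in both. It was the lowest of the 6 libraries for PHC1, KMT2D and BAP1 in both tables, and the highest for RNF2.

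Beyond the 43 genes, 68 further genes of the same pathways were examined in both tables, and 5 of them (7.35%) met the criteria in Obese-MSCs against Lean-MSCs, 2 high and 3 low, against 4.5% of all 18933 genes (2.07% high, 2.43% low). The list of 21 other PRC1 and related genes held 2 of these. FBRS and L3MBTL1 had log2 ratios of -0.99 and -0.98. L3MBTL1, a reader of methylated histones, had 6.89, 6.61 and 10.4 against 16.9, 15.9 and 14.4. Among the 12 other KMT2 complex subunits CXXC1, the CpG-binding subunit of the SETD1 complexes, had 10.1, 9.47 and 9.45 against 13.8, 23.8 and 19.5, a log2 ratio of -0.98. PAXIP1, a subunit of the KMT2C and KMT2D complexes, was high with a log2 ratio of 0.55, and among the 7 other PR-DUB subunits FOXK2 was high with 0.57. The limma adjusted p-values of these 5 genes lay between 0.679 and 0.793. None of the 20 SWI/SNF and CHD genes, which remodel nucleosomes, of the 6 opposing demethylases and deubiquitinase, or of the other lists met the criteria.

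In treated against untreated Obese-MSCs 3 of the 68 genes (4.41%) met the criteria, 1 high and 2 low, against 1.92% of all 18992 genes (1.11% high, 0.806% low). SCML2, a PRC1-associated protein, was high with 11.06, 6.40 and 10.8 normalized counts against 4.30, 5.35 and 3.97, a log2 ratio of 1.05. KDM2B, which recruits PRC1 to CpG islands, was low with 22.1, 19.4 and 22.4 against 30.2, 25.8 and 36.0, a log2 ratio of -0.53. DPF2, a SWI/SNF subunit, was low with 26.2, 23.1 and 23.2 against 45.1, 40.7 and 28.9, a log2 ratio of -0.66. In each of the 3 the treated libraries were separate from the untreated ones, and the limma adjusted p of each rounded to 1.00. For every gene whose groups were separate in either comparison, p was 0.1 in an exact permutation test (two-sided), the least that 20 arrangements of 3 libraries against 3 allow.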

How the data were processed

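The deposited values are a signal per gene, exonic 5hmC as normalized counts. To make them, the authors aligned the reads with Bowtie2 2.3.3.1 to susScr 11.1, removed duplicates with Picard 1.67, counted the reads over exons with HTSeq 0.9.1 and normalized the counts with edgeR 3.28.1, per the study's methods and the submitters' processing notes. The values are fractional and not per exon length, so levels of different genes were not compared, and reads on exons that overlapping genes share could belong to either. The input libraries and peaks were not used here.

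The 43 members and all other gene lists were chosen with earlier results of these data known, the 68 further pathway genes (of 70 listed) and the markers included. Some pathway genes are not reported here. Groups came from the submitters' labels. Values of numerical residue below 1e-10, 645 in all and only in the treatment comparison's file, were set to 0. Calls by the study's criteria used the deposited values of all genes. Limma 3.58.1 in R 4.3.3 was fitted with a variance trend on log2(value + 1) to the genes in the upper 80% by mean (all 43 members), with Benjamini-Hochberg adjustment over all tested genes. Ratios are of group means with no pseudocount. Since nothing ties each library to a separate animal beyond the labels, p-values measure the spread between these libraries. Values in every library are given for members that met the criteria, or whose groups did not overlap with a ratio of at most 0.8 or at least the inverse of that, and for the catalytic members, and further genes are named where they met the criteria. PHF19, MTF2 and values given of other members were chosen after they were seen. Gene positions are from RefSeq for Sscrofa11.1, matched by symbol for all 43. The scripts were tested on simulated data and run with scipy 1.17.1, matplotlib 3.10.9, pandas 2.3.3 and numpy 2.4.6 under Python 3.11.15. Alternatives were other tests, thresholds, pseudocounts, filters and scalings, and each library left out in turn.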

Additional observations from a re-analysis of the deposited data

How the results depend on the processing

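In Obese-MSCs against Lean-MSCs, where EED alone met the criteria, 2 of the 43 genes (ASXL3 and EED) met them with the test on log2(value + 1), 3 (ASXL3, EED and PHC1) with unadjusted limma p-values, 2 (EED and PHF19) with no limit on the ratio, and 0 with p of 0.01 or less, with size factors or with quantile normalization. Leaving out 1 library at a time, the count ran from 0 to 2, with AEBP2 called without Obese library 1, EZH1 without Obese library 3, and ASXL3 and EED without Lean library 7. In treated against untreated cells, where PHC1 alone met the criteria, the count was 0 with the test on log2(value + 1), with unadjusted limma p-values and with p of 0.01 or less, and 0 to 2 with a library left out (EED without treated library 6, PHC1 and YY1 without untreated library 2). Over all genes, p of 0.01 or less left 216 of 852 calls in the first comparison and 66 of 364 in the second, a filter to the upper 80% by mean left 231 in the second, and the left-out libraries gave 763 to 955 and 387 to 534. The number of genes with a limma adjusted p of 0.05 or less was 0 under every alternative, except 1 without Obese library 1 and 1 without Obese library 2 (0 to 1), neither of them a member. The smallest limma adjusted p over the 43 genes ranged from 0.577 to 0.961 in the first comparison and from 0.9996 to 0.99999 in the second. The median log2 ratio of the 43 in the first comparison was -0.15 without Obese library 2 and 0.07 without Obese library 3. The cause of these shifts was not tested. For PRC2, PRC1, PR-DUB and KMT2 the number of ratios above 1 changed with the scaling or the left-out library in both comparisons.

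No paired analysis was possible because the groups share no replicate numbers. With 3 libraries per group, an unknown read depth and counts under 20 for many members, changes smaller than the intervals given could not be detected, and an interval that holds 0 does not show that the groups are alike. The values are relative within a table, so a change of 5hmC common to all genes would not be visible.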

Other observations

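The INK4 gene CDKN2B, a cell cycle inhibitor under Polycomb control, had 39.7, 76.9 and 66.9 normalized counts in Obese libraries against 63.2, 61.6 and 45.2 in Lean libraries, and the groups overlapped. After vitamin-C it had 50.3, 77.0 and 42.8, against 44.6, 86.7 and 73.6 in the untreated libraries of the second table, also with overlap.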
